A study of Mus musculus with 4 samples.

Results

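The Hox cluster genes were taken from the joined expression table as every row whose gene name begins Hox, continues with the cluster letter a, b, c or d and ends in the paralog number, which left antisense and other non-coding names out. The rule found 38 of the 55267 rows: 10 in the Hoxa cluster, 10 in Hoxb, 9 in Hoxc and 9 in Hoxd. Hoxa3, whose transcript was merged with that of its neighbour, had no row of its own because that transcript lies in the row named Hoxa2. RNA-seq had been made from muscle stem cells (MuSCs) of 9-week-old female mice with the genotype C57BL/6N(Tg(Pax7-EGFP)Tajb), in which Pax7 sequences drive a green fluorescent protein. Mononucleated cells from forelimb, hindlimb, dorsal and breast muscles were mixed, cultured, sorted for the reporter and cultured again under 3% oxygen, so that each library mixed body positions. All cells then spent 6 h in serum-free medium with a soluble BMP receptor (BMPR-1A-Fc, 200 ng/mL) to take up BMPs already there. For 1 h, 2 cultures received 100 ng/mL BMP6, a bone morphogenetic protein, and 2 received the vehicle, 4 mM HCl with 0.1% BSA. Replicates 1 and 2 are batches according to the labels, each with a BMP6 and a control library, and the number of mice behind a library is not given in the sources used here.

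Hox genes encode homeodomain transcription factors that lie in clusters, and their order along the chromosome follows the order in which they act along the body axis. Low paralog numbers act towards the head and early, high numbers towards the tail and in the limb, and genes with the same number in different clusters are paralogs. Adult muscle cells keep a Hox pattern that reflects the position of the muscle from which they came, and Polycomb proteins keep the remaining Hox genes silent. BMPs signal through receptor kinases to SMAD proteins, which bind DNA and change transcription of target genes within an hour, among them Id1, an inhibitor of differentiation.

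Each library held 108 to 112 reads, in units of 1000000, rebuilt from coverage. Levels are in TPM, in which read depth is divided by transcript length and scaled to the same total in every library, and 13002 to 13203 rows reached 1 TPM. The labelled cell type was checked by its marker genes. Myod1, a muscle determination factor, was at 536 and 614 TPM in controls and at 631 and 622 TPM after BMP6. Myog, a differentiation factor, lay between 4399 and 5472 TPM, and Pax7, the stem cell factor, between 8.29 and 11.7 TPM. Id1 rose from 110 ± 27.2 TPM to 548 ± 50.2 TPM (mean ± SD, n = 2 per group), with an adjusted p of 0.0164 in limma. The 8 muscle markers summed to 6888 and 7662 TPM in controls and to 6701 and 6978 TPM after BMP6. Of 4 endothelial markers none reached a mean of 1 TPM and Kdr was at 0. The 6 fibroblast markers summed to 198 and 147 TPM in controls and to 188 and 124 TPM after BMP6. Over the libraries Col3a1 lay between 69.4 and 109 TPM, Col1a1 between 34.3 and 62.9 TPM and Ly6a between 18.7 and 24.1 TPM. Dcn lay between 0.955 and 1.92 TPM, Lum between 0.0770 and 0.270 TPM and Pdgfra between 0.0530 and 0.164 TPM. The immune, pericyte and Schwann cell lists summed to at most 1.80, 5.58 and 0.601 TPM. In bulk RNA, a change in the number of cells of a type and a change in RNA per cell cannot be told apart.

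In unstimulated MuSCs the Hox genes were transcribed from parts of all 4 clusters, with the Hoxa cluster in the lead. Summed over the 38 genes, the level was 82.5 TPM in control replicate 1 and 82.8 TPM in control replicate 2. The Hoxa genes made up 64.6% and 64.3% of these sums, Hoxc 21.0% and 20.3%, Hoxb 11.4% and 13.4%, and Hoxd 3.07% and 2.02%. By paralog number, groups 9 to 13 held 43.4% and 42.5% of the sum, groups 4 to 8 held 42.7% and 41.1%, and groups 1 to 3 held 13.9% and 16.4%. A few genes dominated: Hoxa7, Hoxa10, Hoxa9 and Hoxb2 together took 57.8% and 58.6%. Nearly all Hoxb2 signal lay in an exon that overlaps the non-coding gene Hoxb3os on the other strand, and the libraries did not keep strand.

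**Figure D1:**
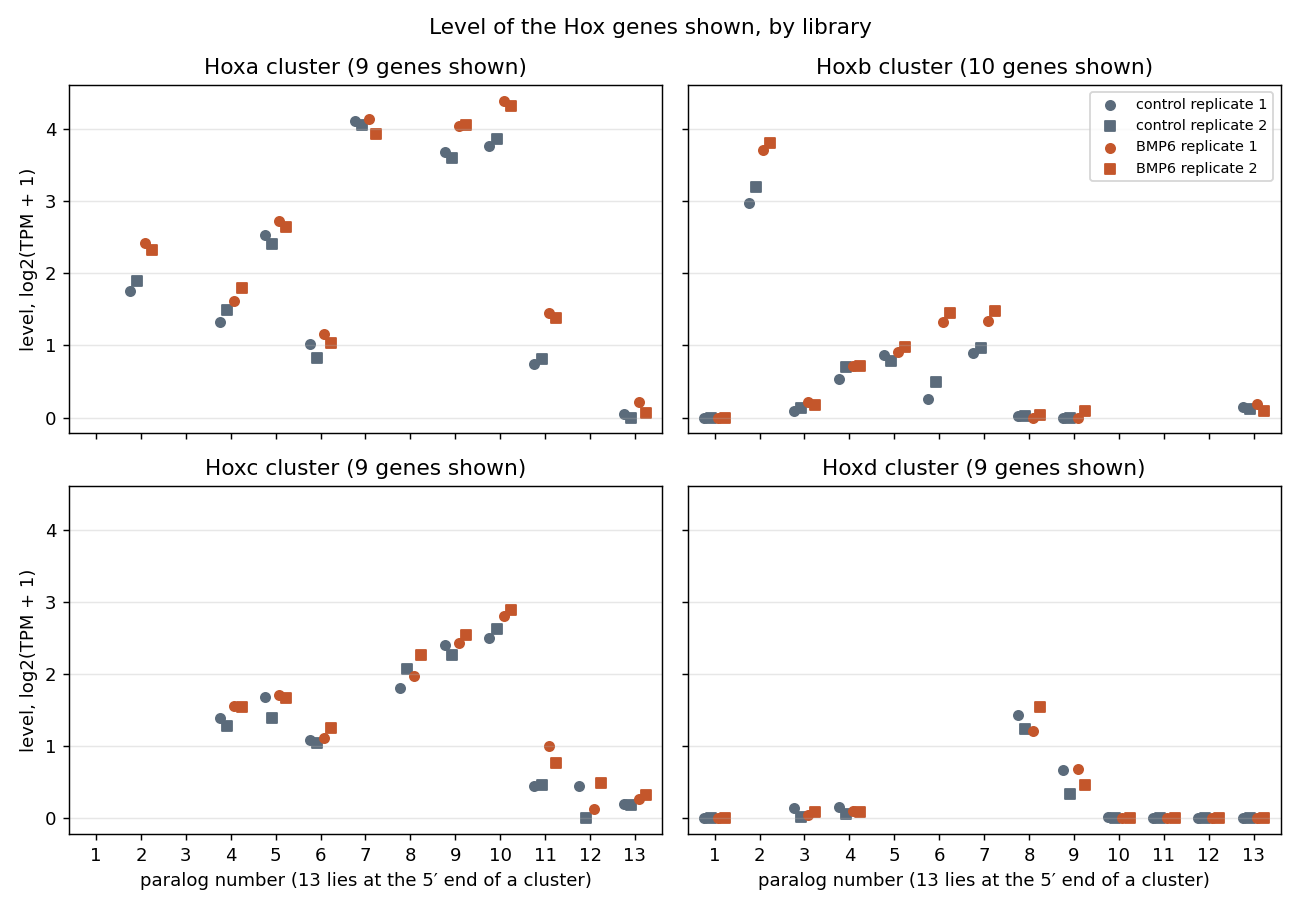
Level of the Hox genes shown as log2(TPM + 1), with paralog number on the horizontal axis and 1 panel per cluster. Each point is 1 library, grey for control and orange for BMP6, circles for replicate 1 and squares for replicate 2. Hoxa7, Hoxa9, Hoxa10 and Hoxb2 stand highest, and most Hoxd genes lie at or near 0.

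The order of the control levels was clear at the top and blurred further down. Hoxa7 (16.3 and 15.7 TPM) came first, followed by Hoxa10 (12.6 and 13.5 TPM), Hoxa9 (11.9 and 11.1 TPM) and Hoxb2 (6.87 and 8.21 TPM). Both control libraries of each of these lay apart from those of the next. Hoxc10 (4.65 and 5.14 TPM) and Hoxa5 (4.77 and 4.29 TPM) overlapped. Hoxc9 (4.29 and 3.80 TPM) came after them. Hoxc8 and Hoxa2 overlapped in turn, and so did each neighbouring pair from Hoxc5 over Hoxa4 and Hoxc4 to Hoxd8. With 2 libraries in a group these are descriptions and not tests of order.

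Each cluster had its own active stretch. In Hoxa, the listed genes from Hoxa2 to Hoxa11 were at 0.680 TPM or more in every library, and only Hoxa13 (0 to 0.161 TPM) was near silence. In Hoxc, activity ran from Hoxc4 to Hoxc10, with control means from 1.10 TPM for Hoxc6 to 4.90 TPM for Hoxc10. Hoxc11, Hoxc12 and Hoxc13 had control means of 0.369, 0.183 and 0.143 TPM. In Hoxb, Hoxb2 stood alone with a control mean of 7.54 TPM, Hoxb4, Hoxb5, Hoxb6 and Hoxb7 had control means between 0.305 and 0.907 TPM, and Hoxb1, Hoxb8 and Hoxb9 were at or near 0. In Hoxd, Hoxd8 (1.70 and 1.36 TPM) was the only gene to pass 1 TPM, and Hoxd9 was at 0.594 and 0.261 TPM. Hoxb1, Hoxd1, Hoxd11, Hoxd12 and Hoxd13 were listed at 0 in all 4 libraries, and Hoxd10 was above 0 only in control replicate 1, at 0.0173 TPM. The remaining low genes, Hoxb3, Hoxb13, Hoxd3 and Hoxd4, stayed between 0.0151 and 0.162 TPM.

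The comparison of BMP6 with control asks which of these genes respond within 1 h. The summed Hox level was 111 TPM in BMP6 replicate 1 and 112 TPM in BMP6 replicate 2, against 82.5 and 82.8 TPM in controls, a ratio of means of 1.35. The gain was uneven. The ratio was 1.72 for the Hoxb sum, 1.33 for Hoxa, 1.23 for Hoxc and 1.06 for Hoxd. Among paralogs it was 1.79 for groups 1 to 3, 1.14 for groups 4 to 8 and 1.40 for groups 9 to 13. Of the summed difference, 60.3% came from the Hoxa cluster.

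The test was limma on log2(TPM + 1) over all 13128 rows with a mean of at least 1 TPM, and calls required a 2-fold difference in either direction and an adjusted p under 0.1. The filter kept 18 of the 38 Hox genes, of which 3 (Hoxa6, Hoxa11 and Hoxb7) had a control mean under 1 TPM and passed it through their BMP6 libraries. None of the 18 was called, against 0.225% of the 10645 rows that could be called higher over the whole table. At an unadjusted p under 0.05, 7 of the 18 were higher and none was lower, against 2.38% of all callable rows in the same direction. Hoxa11 and Hoxb7 are among these 7, and of the 15 genes that did not owe the filter to BMP6, with a control mean of at least 1 TPM, 5 were higher, against 2.16% of callable rows at that level. Their log2 fold changes were above 0 for 17 and below 0 for 1, with a median of 0.25, beside a median of 0.02 and 55.3% above 0 over all tested rows. For the 15 they were above 0 for 14, with a median of 0.22, beside 0.014 and 54.8% over the rows with a control mean of at least 1 TPM.

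A count over every gene above 0 TPM did without the filter. Of these 33 Hox genes, 21 had both BMP6 libraries above both controls and none had both below. Among all rows above 0 TPM whose names were kept for the calls, 16.0% had both above. Of the 15 genes with a control mean of at least 1 TPM, 11 did so, where 17.0% of callable rows at that level did.

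The replicate numbers pair the libraries, and with the replicate block in the model 4 Hox genes passed the adjusted p of 0.1. Among them were Hoxb2 (adjusted p = 0.0136), Hoxa10 (0.0304) and Hoxa11 (0.0985), and all 4 were higher after BMP6, while 1.32% of all callable rows passed in that direction. Of the 15 genes with a control mean of at least 1 TPM, 3 passed, against 1.18% of callable rows at that level. None of the 4 reached a fold of 2 on the log2(TPM + 1) scale, so the count of called Hox genes stayed at 0. Without the block the adjusted p-values of Hoxb2, Hoxa10 and Hoxa11 were 0.588, 0.637 and 0.785. With voom, limma's method for read numbers, on reads rebuilt from coverage the count was 0 without the block and 2 with it, Hoxa11 among them, where 0.517% of callable rows were called higher. Hoxa11 passed the filter only through its BMP6 libraries, and among the 15 genes the count was 1, against 0.332%.

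**Figure D2:**
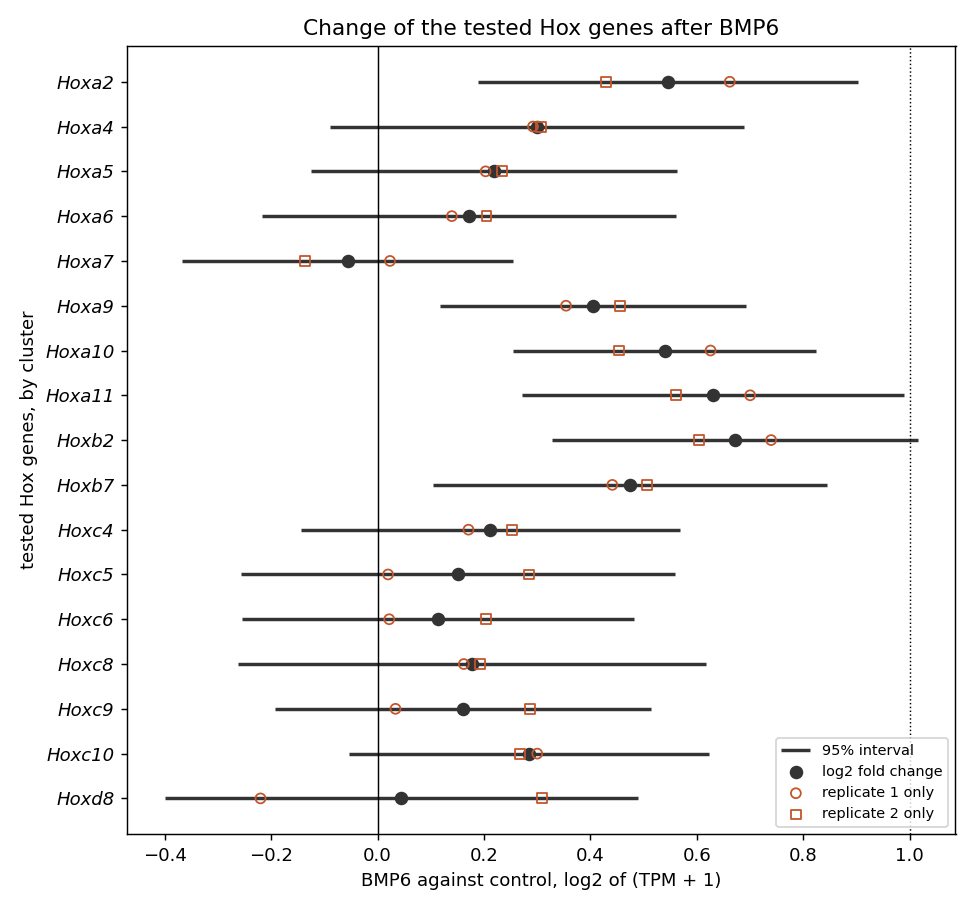
Log2 fold change of 17 of the 18 tested Hox genes, BMP6 against control, on the log2(TPM + 1) scale. Black points and bars are the limma estimate and its 95% interval, open circles and squares are the difference within replicates 1 and 2, and the dotted line marks a fold of 2. Of the genes drawn, Hoxb2 has the highest estimate, 0.67, and Hoxa7 is the only one below 0, at -0.06.

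Hoxa2, which patterns the hindbrain and the pharyngeal arches, was at 2.37 and 2.72 TPM in controls and at 4.34 and 4.01 TPM after BMP6. The groups did not overlap, and the log2 fold change was 0.55 (95% interval 0.19 to 0.90, adjusted p = 1, or 0.103 with the replicate block). The Hoxa2 transcript itself took 89.2% of this row in controls, at 2.03 and 2.51 TPM against 3.83 and 3.51 TPM after BMP6. The Hoxa3 transcript in the same row was at 0.341 and 0.210 TPM in controls and at 0.507 and 0.497 TPM after BMP6. Both transcripts were therefore higher in both BMP6 libraries.

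The middle of the Hoxa cluster differed less. Hoxa4 was at 1.51 and 1.82 TPM in controls and at 2.07 and 2.49 TPM after BMP6, with a log2 fold change of 0.30. Hoxa5, which patterns the cervical and thoracic axis, was at 4.77 and 4.29 TPM in controls and 5.64 and 5.22 TPM after BMP6, a log2 fold change of 0.22. Hoxa6 was at 1.02 and 0.774 TPM against 1.23 and 1.05 TPM. For these 3 genes the groups did not overlap, but each 95% interval included 0.

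Hoxa7, the most abundant Hox gene in controls, was at 16.3 and 15.7 TPM without BMP6 and at 16.6 and 14.2 TPM with it. The groups overlapped, and the log2 fold change of -0.06 had an interval from -0.37 to 0.26, which leaves out a fold of 2 in either direction. Hoxa7 shares 579 bases of its main transcript with the antisense gene Hoxaas3, which was at 0.0446 to 0.151 TPM.

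Hoxa9, Hoxa10 and Hoxa11 lie towards the 5′ end and act in the posterior trunk and limb. Hoxa9 was at 11.9 and 11.1 TPM in controls and at 15.5 and 15.6 TPM after BMP6, with a log2 fold change of 0.41 (interval 0.12 to 0.69). Hoxa10 was at 12.6 and 13.5 TPM in controls and at 20.0 and 18.9 TPM after BMP6, which made it the most abundant Hox gene in the treated cells. Its log2 fold change was 0.54 (interval 0.26 to 0.82), and the difference of the means, 13.1 ± 0.661 to 19.5 ± 0.770 TPM, was larger than the spread in either group. Hoxa11 was low, at 0.680 and 0.763 TPM in controls, and at 1.73 and 1.60 TPM after BMP6, a ratio of means of 2.31. On the log2(TPM + 1) scale this came to 0.63, which understates a change at such a level. In voom with the replicate block its log2 fold change was 1.18, with an adjusted p of 0.0419, and it was called. Hoxa11 passed the filter only through its BMP6 libraries, so the call is no support of its own. Of Hoxa11's 2287 bases, 568 are shared with Hoxa11os on the other strand, and the libraries did not keep strand.

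Promoter windows from RefSeq (250 bases before to 50 after a start, table of GRCm38.p6) exist for 21 of the 38 genes, and each was found once in GRCm39 by exact match. They are shown for the members with an unadjusted p under 0.05 whose window sits on the start of a deposited transcript. Hoxb2 and Hoxb7 are not in that table. Capitals mark GGCGCC, a site that SMAD proteins of the BMP branch can bind, and CAGAC or its complement GTCTG, a SMAD box. The genes and this search were chosen after their values had been seen.
Hoxa2, chr6:52141762-52142061, GRCm39, minus strand: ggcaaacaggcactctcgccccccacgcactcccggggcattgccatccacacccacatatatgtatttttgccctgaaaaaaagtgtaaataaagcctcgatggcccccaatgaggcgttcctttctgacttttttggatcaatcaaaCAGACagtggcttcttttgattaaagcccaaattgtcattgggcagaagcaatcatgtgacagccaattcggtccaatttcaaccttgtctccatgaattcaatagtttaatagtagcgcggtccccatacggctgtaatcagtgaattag
Hoxa9, chr6:52204301-52204600, GRCm39, minus strand: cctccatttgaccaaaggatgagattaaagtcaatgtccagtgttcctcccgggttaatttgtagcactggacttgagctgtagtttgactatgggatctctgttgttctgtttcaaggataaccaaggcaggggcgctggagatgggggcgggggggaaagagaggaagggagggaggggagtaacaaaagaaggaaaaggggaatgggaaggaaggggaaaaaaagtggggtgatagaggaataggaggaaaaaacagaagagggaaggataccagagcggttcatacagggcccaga
Hoxa10, main start, chr6:52211870-52212169, GRCm39, minus strand: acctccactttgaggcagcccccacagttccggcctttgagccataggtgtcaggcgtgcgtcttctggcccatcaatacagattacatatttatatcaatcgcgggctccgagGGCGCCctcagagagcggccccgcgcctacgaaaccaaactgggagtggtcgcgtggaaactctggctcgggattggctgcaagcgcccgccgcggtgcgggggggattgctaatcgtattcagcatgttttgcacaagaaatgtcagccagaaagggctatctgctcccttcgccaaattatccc
Hoxa10, upstream start, chr6:52217785-52218084, GRCm39, minus strand: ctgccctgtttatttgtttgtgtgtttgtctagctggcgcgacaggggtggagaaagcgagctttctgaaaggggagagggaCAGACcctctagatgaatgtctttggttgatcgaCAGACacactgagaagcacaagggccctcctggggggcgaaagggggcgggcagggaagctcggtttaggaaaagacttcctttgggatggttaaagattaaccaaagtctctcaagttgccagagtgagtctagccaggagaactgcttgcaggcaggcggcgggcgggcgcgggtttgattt
Hoxa11, chr6:52222741-52223040, GRCm39, minus strand: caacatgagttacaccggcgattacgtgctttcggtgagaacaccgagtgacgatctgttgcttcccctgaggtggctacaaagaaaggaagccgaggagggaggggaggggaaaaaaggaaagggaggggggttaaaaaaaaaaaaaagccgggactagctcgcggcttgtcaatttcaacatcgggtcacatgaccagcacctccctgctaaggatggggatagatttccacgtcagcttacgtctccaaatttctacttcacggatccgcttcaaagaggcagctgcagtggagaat
The window at the main Hoxa10 start holds 1 GGCGCC and no CAGAC, and that at its upstream start holds 2 CAGAC and no GGCGCC. The Hoxa2 window holds 1 CAGAC, and the windows of Hoxa9 and Hoxa11 hold neither. The Hoxa10 transcript from the main start was at 9.74 and 10.5 TPM in controls and at 16.5 and 15.2 TPM after BMP6. The one from the upstream start was at 2.87 and 3.00 TPM against 3.55 and 3.75 TPM. The groups did not overlap for either transcript. Over all 32851 promoter windows of the table, 11.9% hold GGCGCC and 49.6% hold CAGAC on either strand. Among the 23 Hox windows, 5 hold GGCGCC and 8 hold CAGAC. A match describes the letters of a window and not a bound site.

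In the Hoxb cluster the levels were lower but the ratios higher. Hoxb2 (chr11:96242457-96244838, GRCm39, plus strand), another hindbrain patterning gene, was at 6.87 and 8.21 TPM in controls and at 12.1 and 13.01 TPM after BMP6. The groups were well separated, with means of 7.54 ± 0.948 and 12.6 ± 0.609 TPM, and the log2 fold change was 0.67 (interval 0.33 to 1.02). Nearly all of this signal lay in the last exon, which shares 953 of its 1063 bases with Hoxb3os on the other strand. Reads of these genes cannot be told apart there. Hoxb7 was at 0.855 and 0.958 TPM in controls and at 1.52 and 1.78 TPM after BMP6, with a log2 fold change of 0.47 (interval 0.10 to 0.84).

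Hoxb6 had the largest ratio of all Hox genes above 0 in every library, but its mean lay just under the filter of 1 TPM. It was at 0.199 and 0.410 TPM in controls and at 1.50 and 1.72 TPM after BMP6, from 25 and 42 rebuilt reads against 135 and 141. The ratio of means was 5.29, and the groups lay far apart. Almost the whole difference sat in the shorter of its transcripts, at 0 and 0.207 TPM in controls and 1.26 and 1.64 TPM after BMP6, while the longer one stayed between 0.0766 and 0.238 TPM. With the filter lowered to 0.5 TPM, a setting chosen after its values had been seen, the log2 fold change was 1.00 with an adjusted p of 0.208, and of 0.0149 with the replicate block, where it was called, as were 0.332% of callable rows in that direction. Hoxb6 passes that filter only through its BMP6 libraries, so the call is no support of its own. Hoxb6 and Hoxb7 share a stretch of 178 bases at 91.0% identity.

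Its neighbours did not show that size of difference. Hoxb4 was at 0.443 and 0.621 TPM in controls and at 0.647 and 0.638 TPM after BMP6. Hoxb5 was at 0.833 and 0.727 TPM against 0.886 and 0.974 TPM. In both the BMP6 libraries lay above the controls, by ratios of 1.21 and 1.19. Hoxb1, Hoxb3, Hoxb8, Hoxb9 and Hoxb13 stayed at or below 0.162 TPM in all libraries.

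The tested Hoxc genes differed little between the groups. Hoxc10 was at 4.65 and 5.14 TPM in controls and at 5.96 and 6.40 TPM after BMP6, with a log2 fold change of 0.28 (interval -0.05 to 0.62). Hoxc9 was at 4.29 and 3.80 TPM against 4.41 and 4.85 TPM, and Hoxc8 at 2.51 and 3.22 TPM against 2.93 and 3.82 TPM. Hoxc8 differed more between the batches than between the groups. The same held for Hoxc5, at 2.23 and 1.62 TPM in controls and 2.27 and 2.19 TPM after BMP6, where the groups overlapped in 1 library.

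Hoxc4 was at 1.62 and 1.44 TPM in controls and at 1.95 and 1.91 TPM after BMP6, and Hoxc6 at 1.13 and 1.07 TPM against 1.16 and 1.39 TPM. The log2 fold changes of all 6 tested Hoxc genes lay between 0.11 and 0.28, and every interval included 0. Below the filter, Hoxc11 was at 0.363 and 0.376 TPM in controls and at 1.00 and 0.707 TPM after BMP6, a ratio of 2.31 that rests on 47 and 47 rebuilt reads against 127 and 86. Hoxc11 is the paralog of Hoxa11, and the sum of paralog group 11 was 1.04 and 1.14 TPM in controls and 2.73 and 2.31 TPM after BMP6.

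Hoxd8, the tested gene of its cluster, was lower after BMP6 in replicate 1 (1.70 against 1.32 TPM) and higher in replicate 2 (1.36 against 1.92 TPM). Its log2 fold change of 0.04 had an interval from -0.40 to 0.49. Hoxd9 was at 0.594 and 0.261 TPM in controls and at 0.604 and 0.372 TPM after BMP6. No gene of the Hoxd cluster separated the groups.

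**Figure D3:**
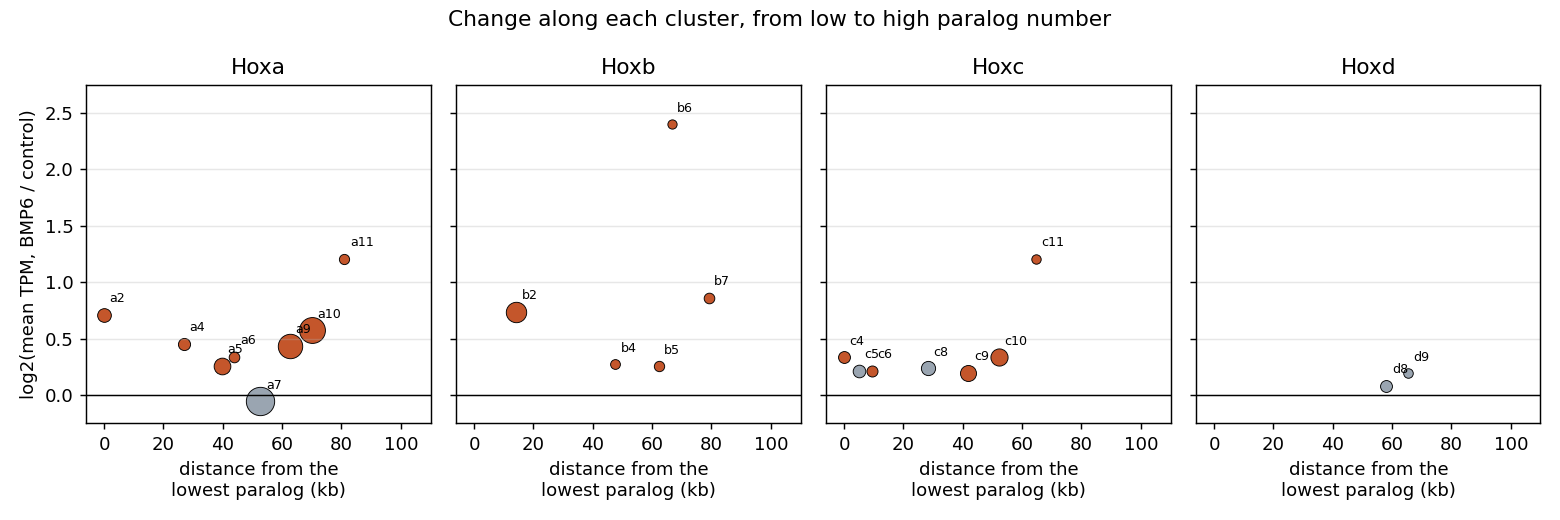
Log2 of the ratio of mean TPM, BMP6 over control, against the distance in kb of each gene's start from that of the lowest paralog considered in its cluster (Hoxa2 in Hoxa). Genes with a control mean of at least 0.3 TPM are drawn, with an area that grows with that mean, in orange where both BMP6 libraries exceeded both controls and in grey where the groups overlapped. In Hoxa the ratio is 1.64 at Hoxa2, 0.962 at Hoxa7 and 2.31 at Hoxa11.

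Seen along the chromosome from Hoxa2 to Hoxa11, the ratio was highest at the ends and lowest near the middle: 1.64 for Hoxa2, 1.37 for Hoxa4, 1.20 for Hoxa5, 1.26 for Hoxa6, 0.962 for Hoxa7, 1.35 for Hoxa9, 1.49 for Hoxa10 and 2.31 for Hoxa11. The Hoxc cluster was flat up to Hoxc10, with ratios from 1.15 to 1.26, before Hoxc11. The shape is a description of 2 libraries against 2 and was not tested.

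The levels were also read exon by exon, from the coverage of each exon on the TPM scale. In Hoxa10 the ratios were 1.65 for the first exon and 1.52 for the last, and in Hoxa11 they were 2.01 and 2.34, the last exon of each being free of overlap. Over the 18 tested Hox genes the ratio was above 1 in 34 of 40 exons, and the lowest was 0.877. Both BMP6 libraries lay above both controls in 25 of these 40. The 18 include Hoxa6, Hoxa11 and Hoxb7, which passed the filter through their BMP6 libraries. Exons of the same gene are not independent, and no such count was made over the exons of other rows. The exon counts are therefore only a description.

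Hoxb2 was different in this respect. Its last exon was at 10.5 and 12.5 in controls and at 18.4 and 19.8 after BMP6, whereas its first exon stayed between 0.0338 and 0.364. Of the last exon's 1063 bases, 953 are shared with Hoxb3os on the other strand. Hoxb3os as a row was at 1.26 and 1.83 TPM in controls and 2.17 and 2.07 TPM after BMP6. Its transcripts that share bases with Hoxb2 were listed at 0 and 0.147 TPM in controls and at 0.164 and 0.0981 TPM after BMP6. Since the libraries did not keep strand, Hoxb2 and Hoxb3os reads in these bases cannot be told apart. The last exon was also the higher one in 16 of the 18 tested genes, with a median of 3.64 times the first, and Hoxb2's excess of 70.2 times was the highest with a first exon above 0.

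**Figure D4:**
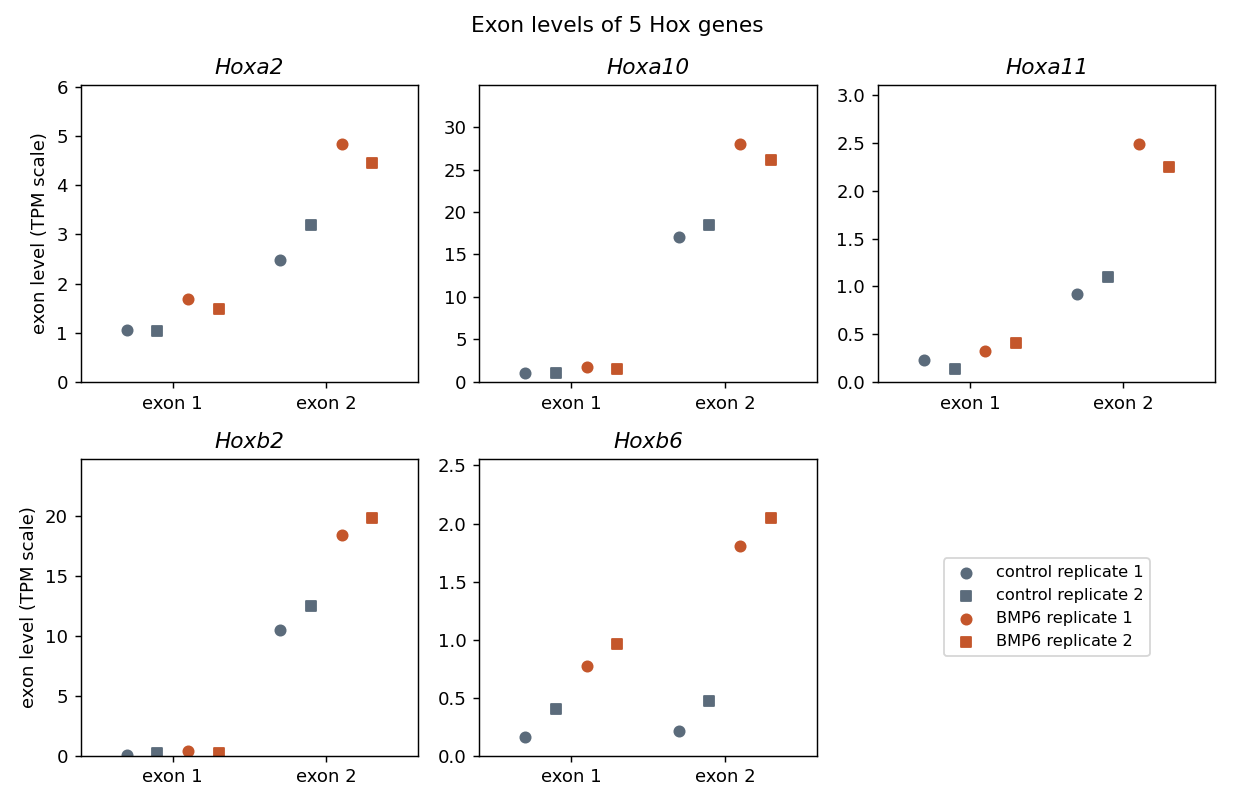
Level of each exon of the leading transcript, on the TPM scale, for Hoxa2, Hoxa10, Hoxa11, Hoxb2 and Hoxb6. Points are libraries, grey for control and orange for BMP6, circles for replicate 1 and squares for replicate 2, and each panel has its own axis from 0. In 9 of the 10 exons both BMP6 libraries lie above both controls, the exception being the first exon of Hoxb2. The genes drawn are among those with high ratios of BMP6 to control, so this count does not stand for all Hox genes. Over the 18 tested Hox genes it is 25 of 40 exons, and 18 of the 33 that share no base with another gene. No such count was made over the exons of other rows.

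Non-coding genes of the clusters were looked at beside their neighbours. Of 21 listed, 15 had a row, 4 were tested and none passed the adjusted p with or without the replicate block. All 4 tested log2 fold changes were above 0, with a median of 0.26. The Hotairm1 row was at 12.4 and 15.1 TPM in controls and at 20.0 and 18.6 TPM after BMP6, a log2 fold change of 0.46 (adjusted p = 1, or 0.106 with the block). The transcripts that the annotation names Hotairm1 made up part of this row, at 6.71 and 8.12 TPM in controls and at 9.29 and 9.31 TPM after BMP6, a ratio of means of 1.25. Hoxaas2 was at 1.65 and 1.97 TPM against 2.15 and 2.42 TPM, and Hoxb5os at 0.879 and 1.59 TPM against 1.35 and 1.46 TPM. Hottip and the rows of the miRNA genes Mir10a, Mir10b, Mir196a-1 and Mir196a-2 were at 0, in libraries that were made from polyA RNA.

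Hox proteins bind DNA together with TALE homeodomain cofactors. Of the 9 on the list 7 were tested, 4 with a log2 fold change above 0 and 3 below, a median of 0.07, and none passed the adjusted p in either fit. The leading ones were Pknox2 (31.7 and 34.4 TPM in controls, 34.6 and 39.1 after BMP6), Pknox1 (17.5 and 24.4 against 22.4 and 26.6), Meis3 (11.8 and 10.1 against 13.01 and 10.5) and Pbx3 (4.08 and 6.15 against 3.93 and 5.00). The cofactor genes were thus present, and in Pknox1, Meis3 and Pbx3 the groups overlapped.

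Polycomb genes, which silence Hox loci, and Trithorax genes and demethylases, which oppose them, were tested in 22 and 14 members. No member passed the adjusted p without the block and 1 did with it, and the medians were 0.08 and 0.10. Eed (62.3 and 61.3 TPM in controls, 64.4 and 64.8 after BMP6), Mtf2, Rnf2 and Pcgf6 were the most abundant of the first list in controls, and Dpy30, Psip1, Ash2l and Men1 of the other in both groups.

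Few genes were measurable on a list that joins upstream regulators of Hox genes with related homeobox genes. Of 15 listed genes, 3 were tested and none passed the adjusted p. Rara, a retinoic acid receptor, was at 3.93 and 3.72 TPM in controls and at 5.16 and 5.36 TPM after BMP6, Gdf11 lay between 6.33 and 7.08 TPM, and Rarg between 1.52 and 2.33 TPM. Cdx2, Cdx4, Gsx1, Gsx2, Evx1 and Evx2 were at 0 in all libraries, and Cyp26b1 stayed at or below 0.238 TPM. Gmnn, which restrains Hox activity in dividing cells, was at 80.3 and 91.2 TPM against 79.8 and 73.7 TPM.

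Other patterning factors of limb muscle gave a similar result. Of 11 listed, 7 were tested and none passed the adjusted p. Lbx1 was at 8.62 and 6.74 TPM in controls and at 9.61 and 8.13 TPM after BMP6. Tbx4, which is specific to the hindlimb, was at 9.30 to 10.7 TPM in the 4 libraries, while its forelimb counterpart Tbx5 was at 0. Pitx1, of the same list, stayed at or below 0.0485 TPM, and each library mixed forelimb, hindlimb and trunk muscles.

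The other comparison the design allows is between the batches, replicate 2 against replicate 1, with treatment in the model. It asks whether the Hox pattern differed between these batches. No Hox gene was called, where 0.47% of callable rows were. None of the 18 passed the adjusted p alone, while 20.6% of callable rows did, and at the unadjusted 0.05 level 1 of the 18 differed, against 30.4% of those rows. That gene was Hoxc8, higher in replicate 2 by 0.28 on the log2 scale (adjusted p = 0.156). The shares of callable rows cover every level and were not matched to the level of the Hox genes.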

How the data were processed

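Gene expression was measured in 4 RNA-seq libraries, and group and replicate number came from the labels. The authors aligned paired reads with STAR 2.7.11a to GRCm39 with GENCODE annotation, merged StringTie 2.2.1 assemblies and used the merged set to quantify every library. The authors deposited TPM and FPKM per gene in joined tables. The signal deposited per transcript and exon is coverage, the mean read depth. No counts are in these files, so the main test used none, and voom was run as an alternative on reads rebuilt from coverage. The unstranded libraries do not tell overlapping genes on opposite strands apart, and StringTie's correction for reads placed at several sites was switched off per the file headers.

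The members and lists were chosen with earlier results of these data known. Rows were tested with limma 3.58.1 (R 4.3.3; lmFit, eBayes with a trend, two-sided, Benjamini-Hochberg) on log2(TPM + 1) with a mean TPM of at least 1. Calls required an adjusted p under 0.1 and a fold of 2 or more, or 0.5 or less. Of 13128 tested rows, 2483 stayed in the fit and out of the calls because of their names. These rows had no gene name, or one that begins with Gm, Mir or ENSMUSG or ends in Rik, os or -ps. A number could follow os or -ps. The rule goes by letters alone and so also left out Gmnn. Intervals are at 95%. Reads were rebuilt as coverage times length over a read length of 100 bases, and exon coverage, summed over the transcripts of a row, was multiplied by the factor that turns a library's coverage into TPM. These are not independent molecules, so p-values measure only the spread between these libraries. With 2 libraries a group, no exact permutation test can go below p = 0.333. Replicate numbers mark shared batches in the labels, and the deviations of same-numbered libraries had a correlation of 0.563 across rows. The steps were tested on simulated data. Members were searched against GENCODE M39 transcripts with BLAST+ 2.17.0 for stretches of at least 100 bases at 90% identity. Besides Hoxb6 with Hoxb7, such stretches joined Hoxc10 with Hoxc5 (168 bases, 100%) and Hoxa6 with Hoxa7 (166 bases, 93.4%). They also joined Hoxd3 with Hoxd4 (388 bases, 100%) and Hoxb3 with Hoxa3 (236 bases, 90.3%). All members with a mean of at least 1 TPM were named with their values, the others with their range, and from each list the 4 highest and any past the adjusted p. Values of 1 member and of some list genes are not reported here and are left out of the figures, while counts, sums and medians cover them.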

Additional observations from a re-analysis of the deposited data

How the results depend on the processing

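No Hox gene was called, BMP6 against control, under 14 of 15 other settings fixed at the start, among them every one that left out a library. The exception, voom with the replicate block, called 2, Hoxa11 among them. A filter at 0.5 TPM, chosen after seeing the data, called 0, and 1 (Hoxb6) when joined to the block. Hoxa11 and Hoxb6 passed these filters only through their BMP6 libraries. Without regard to the fold, 0 Hox genes passed the adjusted p in the test as described. With the replicate block 4 passed, all higher, where 1.32% of callable rows did. Of the 15 genes with a control mean of at least 1 TPM, 3 did, against 1.18%. The count was 4 with the block and the 0.5 TPM filter, Hoxb6 among them, and 5 with voom and the block, Hoxa11 among them. For these 2 settings the share of all rows past the adjusted p was not taken, so the counts are only a description. Over all rows, 24 were called higher and 0 lower. The replicate block gave 36 and 1, its combination with the 0.5 TPM filter 38 and 1, and voom with the block 55 and 4. Fewer were called higher with a pseudocount of 5 (15), a mean TPM of at least 5 (15), eBayes without a trend (12), an adjusted p under 0.05 (11) and no filter (1). Leaving out 1 library gave 17 to 30 higher and 1 to 7 lower. The median log2 fold change of the tested Hox genes, 0.25, was 0.32 with a pseudocount of 0.1, 0.13 with 5, 0.11 with no filter, 0.41 at a mean TPM of at least 5, 0.32 with voom, 0.32 with voom and the block, and 0.24 to 0.33 without 1 library. It stayed above 0 in all of these. Without 1 library, Hoxa7 ranged from -0.16 to 0.048, above 0 without BMP6 replicate 2, and Hoxd8 from -0.12 to 0.21, below 0 without control replicate 2 (-0.05) or BMP6 replicate 2 (-0.12). For the other 16 tested genes the direction held under every alternative in which the gene was tested. In FPKM the summed Hox level was 43.0 in controls and 57.0 after BMP6. Between the batches, 42 rows were higher and 8 lower, which became 73 and 27 with a pseudocount of 0.1, 22 and 4 with 5, 0 and 0 with no filter, and 70 and 36 with voom, with 0 Hox genes in all of them. Leaving out a library was not run for that comparison, since it leaves no residual degrees of freedom. The causes were not tested. Genes near 1 TPM rest on 42 to 248 rebuilt reads a library (Hoxa6 and Hoxa11), which limits what can be seen there.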
